A study of Homo sapiens with 16 samples.

Results

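The 45 genes described here copy the genome or supply the building blocks for copying it. They were taken from a list of 45 symbols by the gene symbol that the annotation of the Affymetrix HG-U133A array gives to each probe set, and all 45 were measured, among 11963 genes in all. A gene with several probe sets is represented by the one whose level averaged highest across the 16 arrays. Values are deposited log2 expression levels, so a difference of 1 is 2-fold, and each value after ± beside a difference is its standard error. RNA came from 8 established human cell lines, each hybridised once after treatment and once untreated. The lines FE-PD and JB6, together with SU-DHL-1 and Karpas 299, derive from anaplastic large cell lymphoma (ALCL), a mature T-cell lymphoma with little of the T-cell programme left. The lines CCRF-CEM and Jurkat, together with Molt-3 and Molt-4, derive from T-cell leukaemia. Where 4 values of a type are listed, they stand in this order. Treated cells of both types received 5-aza-2'-deoxycytidine (5-aza-dC) at 1 µM for 6 days and trichostatin A (TSA) at 625 nM for 24 h. The 4 groups were therefore treated ALCL, untreated ALCL, treated T-cell and untreated T-cell lines, with 4 arrays each. 5-aza-dC is a deoxycytidine analogue that enters DNA during replication and traps DNA methyltransferases, and TSA inhibits histone deacetylases. The 2 agents were given together, so their separate parts cannot be told apart. Molt-3 and Molt-4 are known to come from the same patient, and their untreated arrays were the most alike of all array pairs (r = 0.9953 across probe sets).

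Replication starts when the origin recognition complex marks an origin and CDC6 and CDT1 load the ring of MCM proteins there. In S phase a kinase, CDC45 and the GINS complex turn the MCM ring into the moving helicase, polymerases copy both strands under the sliding clamp PCNA, and chromatin is rebuilt behind the fork. Ribonucleotide reductase, thymidylate synthase and thymidine kinase supply the deoxynucleotides. Transcription factors of the E2F family switch on many of these genes when cells leave G1, and RB1 restrains them, so their RNA is known as a sign of cycling cells. In cultures measured in bulk, fewer cells in S phase and less RNA per cell cannot be told apart.

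Mean levels of cell type markers matched the labels in the untreated arrays. The mean of 4 ALCL markers (TNFRSF8, ALK, PRF1 and GZMB) lay between 10.298 and 11.968 in untreated ALCL lines, against 6.217 to 6.768 in untreated T-cell lines. The mean of 6 T-cell markers (CD3E, CD3G, CD3D, LCK, CD7 and TRAT1) lay between 6.296 and 7.032 in untreated ALCL lines, against 10.231 to 10.474 in untreated T-cell lines. Single markers were less even. ALK was as low as 6.389 in untreated ALCL lines, within the 6.085 to 6.401 of untreated T-cell lines, while TNFRSF8, PRF1 and GZMB did not overlap. CD3D reached 10.746 in untreated ALCL lines, below the 12.699 to 12.83 of untreated T-cell lines. After treatment the T-cell marker mean was 7.365 to 8.153 in the T-cell lines. Marker means for B cells (2 of 3 genes measured), myeloid cells (4 of 4) and stromal cells (3 of 3) were at most 7.749 on every array. Without detection calls, none can be said to be at 0. Of the myeloid markers, CSF1R stood at 8.544 to 9.809 in untreated ALCL lines, against 6.3 to 6.978 in untreated T-cell lines. A control probe set for the 5' part of 28S ribosomal RNA read 12.05 to 14.26 on the treated arrays of both Molt lines, FE-PD, JB6 and SU-DHL-1, against 6.60 to 7.62 on the 8 untreated arrays. On the treated arrays of Karpas 299, CCRF-CEM and Jurkat it read 6.81, 7.52 and 8.15. The 3' minus 5' difference between probe sets of ACTB, a sign of RNA integrity, was negative on every untreated array and higher on the treated array in 7 of 8 lines, with changes between -0.09 in Karpas 299 and 1.13 in JB6. A second 28S control, for the middle of that RNA, read 10.74 to 12.06 on the treated arrays of 7 lines and 9.58 on that of Karpas 299, against 9.14 to 9.60 on the untreated arrays. Karpas 299 is thus the 1 line with no rise in either control. Changes in the 5 lines with the rise of the 5' control (a treated level over 10) are set beside those in the other 3 below.

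Expression of the replication genes was lower after treatment in both cell types, and more so in ALCL lines. Of the 45 genes, 39 fell and 1 rose in ALCL lines (limma, adjusted p below 0.05 over 11963 genes), where 13.4% of all genes fell and 8.04% rose. In T-cell lines 30 fell and 1 rose, where 20.2% of all genes fell and 21.7% rose. The median log2 difference of the 45 genes was -1.32 in ALCL lines and -0.77 in T-cell lines, beside medians of 0.09 and 0.14 over all genes tested. A fall of at least 2-fold was called for 32 genes in ALCL lines (6.09% of all genes) and for 12 in T-cell lines (9.4% of all genes). There were 29 genes that fell in both types, which 10.6% of all genes did. CDC7 was called lower in T-cell lines alone (9.61% of all genes) and 10 genes in ALCL lines alone (2.82% of all genes); whether such a pair of effects differs is tested further below. Every treated array lay below every untreated one of its type for 35 genes in ALCL lines (8.75% of all genes) and for 24 in T-cell lines (15.7% of all genes). Every treated array lay above for no gene in ALCL lines (7.69% of all genes) and for TK1 in T-cell lines (25% of all genes). Line by line, 31 of the 45 genes were lower on the treated array in all 8 lines, as were 14% of all genes.

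**Figure D1:**
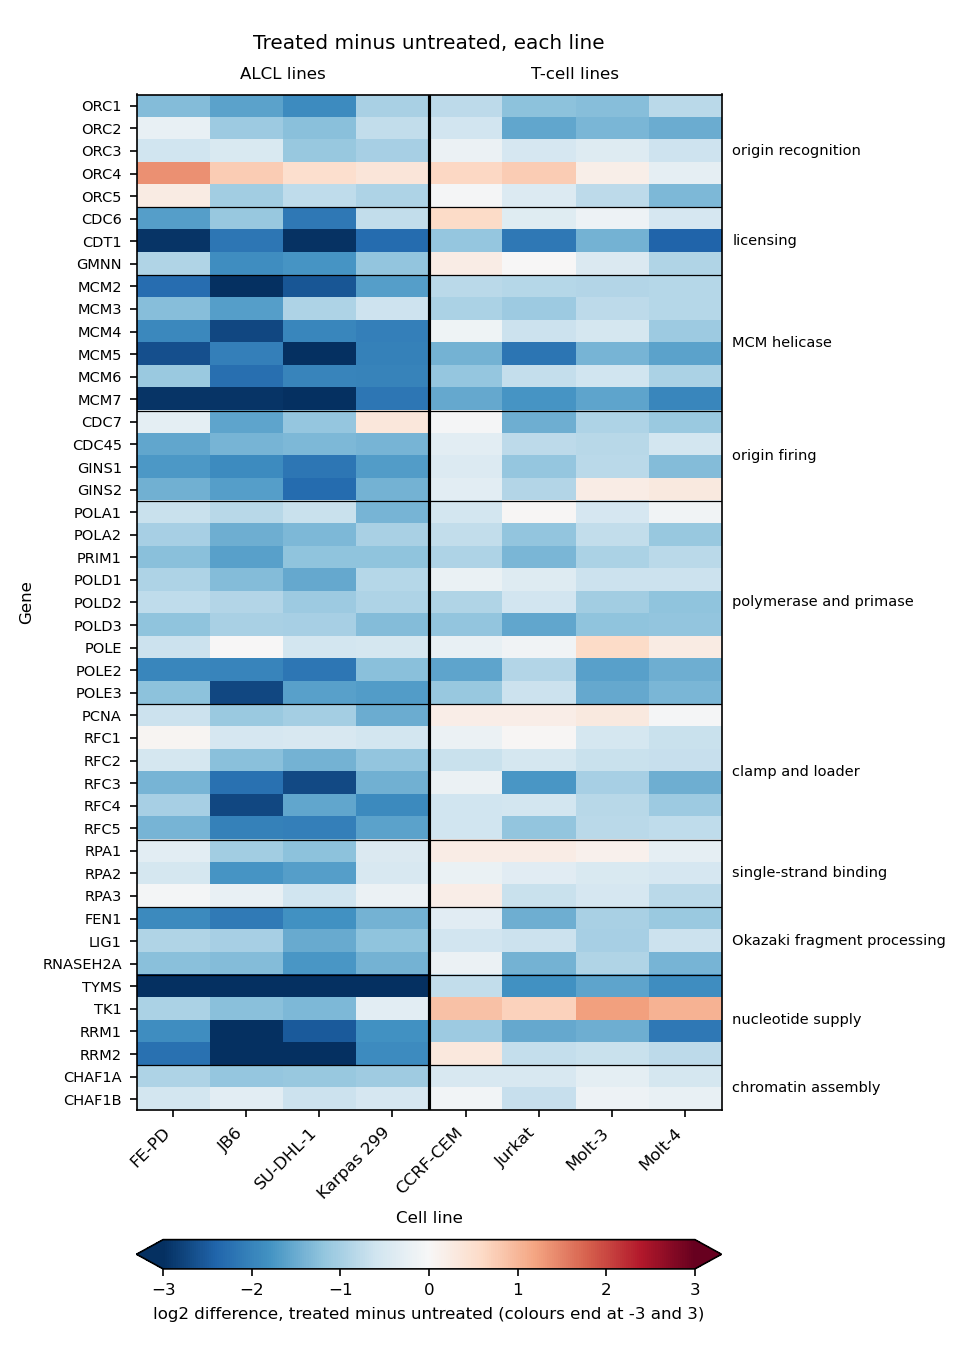
Log2 difference, treated minus untreated, of the 45 replication genes (rows, grouped by role) in each of the 8 cell lines (columns, ALCL lines left of the black line and T-cell lines right of it). Blue is lower on the treated array; TK1 is blue in the 4 ALCL lines and red in the 4 T-cell lines, and ORC4 is red in 7 of 8 lines.

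The start regions of these genes were searched because so many of them moved together. RefSeq entries (GRCh38.p14, from 250 bases before to 50 after each start) were matched by symbol for 40 of the 45 genes, in 53 windows. E2F-type motifs were searched on both strands as TTTCCCGC, TTTCGCGC, TTTGCCGC and TTTGGCGC, whose matches may overlap. A match was found in 19 of 40 genes (47.5%), beside 6.08% of the 9563 tested genes with a window. Counted by window of the same length, the shares were 35.8% for the replication genes, 4.38% for the tested genes and 3.31% for all 35116 windows. TTTCCCGC occurred in 10 of the genes, TTTGGCGC in 7, TTTCGCGC in 5 and TTTGCCGC in none. TYMS, MCM7 and CDT1, the genes with the lowest mean change over the 8 lines among those with a match, are shown first by the 200 bases before their starts, 5' to 3' on the gene's strand, with matches in capitals. TYMS lies at chr18:657453-657652 (plus strand), MCM7 at chr7:100101398-100101597 (minus strand, the only 1 of its 3 windows with a match) and CDT1 at chr16:88803589-88803788 (plus strand). MCM6 (chr2:135876444-135876643, minus strand) was added after its values were seen, as a start region where matches on both strands overlap, and TK1 (chr17:78187053-78187252, minus strand) as the gene that moved in opposite directions, which holds none of the 4 motifs.
TYMS: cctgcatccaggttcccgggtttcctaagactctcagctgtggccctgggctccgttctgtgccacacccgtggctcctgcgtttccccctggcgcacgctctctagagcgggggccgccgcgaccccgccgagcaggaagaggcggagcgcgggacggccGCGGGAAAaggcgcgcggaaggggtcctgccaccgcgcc
MCM7: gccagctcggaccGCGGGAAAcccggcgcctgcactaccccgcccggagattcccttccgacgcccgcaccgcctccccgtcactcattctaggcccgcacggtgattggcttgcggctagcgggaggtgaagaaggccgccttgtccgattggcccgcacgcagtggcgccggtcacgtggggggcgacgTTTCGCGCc
CDT1: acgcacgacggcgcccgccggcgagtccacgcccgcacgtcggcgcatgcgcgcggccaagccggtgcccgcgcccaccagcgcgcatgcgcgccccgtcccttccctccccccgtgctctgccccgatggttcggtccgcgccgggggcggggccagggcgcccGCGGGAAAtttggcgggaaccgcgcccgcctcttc
MCM6: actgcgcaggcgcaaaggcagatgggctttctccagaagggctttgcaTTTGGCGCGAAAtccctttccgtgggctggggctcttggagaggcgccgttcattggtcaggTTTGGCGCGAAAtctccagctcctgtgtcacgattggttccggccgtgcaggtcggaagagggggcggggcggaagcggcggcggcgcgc
TK1: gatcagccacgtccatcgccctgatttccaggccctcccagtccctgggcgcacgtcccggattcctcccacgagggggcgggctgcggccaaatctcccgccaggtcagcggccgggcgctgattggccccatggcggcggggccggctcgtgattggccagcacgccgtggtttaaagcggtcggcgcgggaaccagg
The match begins 39 bases before the start in TYMS and 35 bases before it in CDT1, and MCM7 has matches beginning 187 and 9 bases before it. In MCM6 the run TTTGGCGCGAAA occurs at both places, each holding TTTGGCGC and the reverse complement of TTTCGCGC. All 4 MCM genes with a window (MCM2, MCM3, MCM6 and MCM7) and all 3 licensing genes (CDC6, CDT1 and GMNN) held a match, while RRM1, RRM2 and RPA1 did not.

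**Figure D2:**
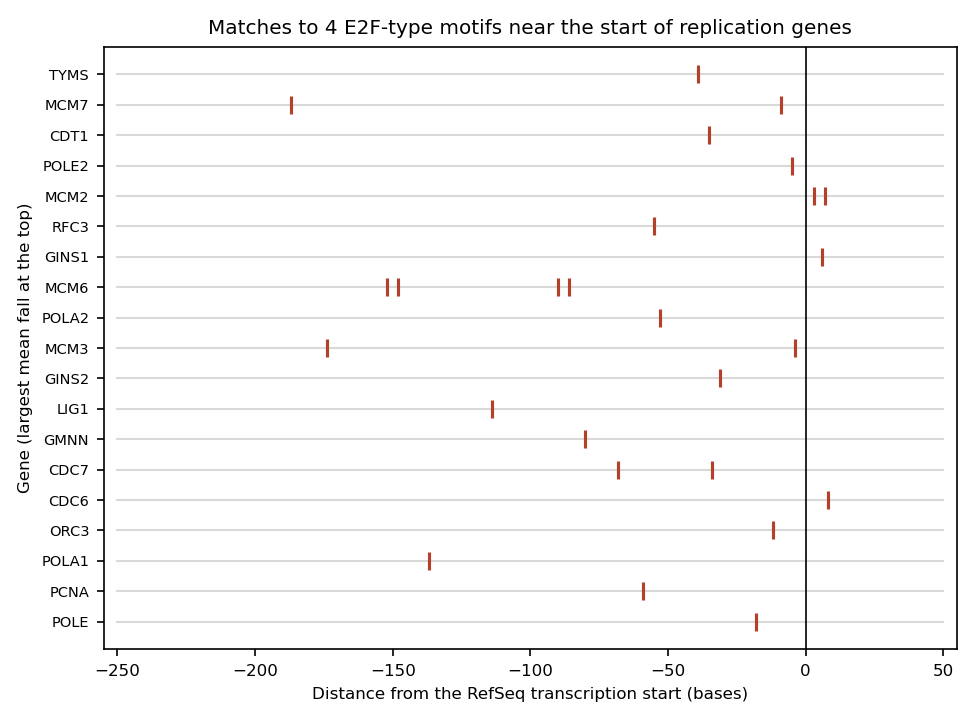
Positions of matches to the 4 E2F-type motifs in the RefSeq start windows of the 19 replication genes that hold one, as distance in bases of the first base of the match from the transcription start (vertical line), with the gene of largest mean fall at the top. Of 26 matches, 16 begin within 100 bases before the start.

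The replication genes with and without a motif were also set side by side, with no test of the difference between them. The 19 genes with a match had a median log2 difference of -1.43 in ALCL lines and -0.85 in T-cell lines, and 17 and 13 of them fell. The 21 genes with a window but no match had medians of -1.16 and -0.65, and 18 and 14 of them fell. A difference of effects between the cell types, tested further below, was called for 5 of the 19 and 2 of the 21. Among all tested genes, 24.1% of the 581 with a match fell in ALCL lines, against 13.9% of the 8982 without one. In T-cell lines the shares were 31.7% with and 20.9% without a match. The replication genes' windows also held more CpG pairs, with a median of 31 per 300 bases beside 22 in the tested genes, and CCAAT was found in 60% of the genes beside 44.2%.

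Genes for nucleotide supply had the 2 lowest differences of the 45 in ALCL lines, TYMS and RRM2, and held the 1 gene that rose in T-cell lines, TK1. TYMS, thymidylate synthase, which makes the thymidine nucleotide from its uridine form, stood at 8.95, 8.41, 9.23 and 9.15 in treated ALCL lines, against 12.05, 12.09, 12.46 and 12.35 in the same lines untreated. In T-cell lines it stood at 11.81, 10.87, 10.88 and 10.39 treated, against 12.56, 12.69, 12.45 and 12.25 untreated. No treated array of either type reached an untreated one of that type, and CCRF-CEM kept the most. The log2 difference was -3.30 ± 0.19 in ALCL lines (adjusted p = 2.02e-05), a 9.88-fold lower level, and -1.50 ± 0.19 in T-cell lines (adjusted p = 0.000428). A second TYMS probe set with a mean level of 6.51 showed differences of 0.05 in ALCL and 0.28 in T-cell lines, neither past the test.

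RRM1, the large subunit of ribonucleotide reductase, stood at 8.13, 7.12, 7.995 and 8.13 in treated ALCL lines, against 10.00, 10.14, 10.52 and 9.94 untreated. In T-cell lines its levels were 9.64, 8.82, 9.39 and 8.49 treated, against 10.74, 10.35, 10.86 and 10.64 untreated. Treated and untreated arrays did not overlap in either type, and the differences were -2.31 ± 0.22 in ALCL and -1.56 ± 0.22 in T-cell lines (adjusted p = 0.000225 and 0.000746). RRM2, the small subunit, whose RNA is known to peak in S phase, stood at 10.90, 8.72, 8.79 and 10.34 in treated ALCL lines, against 13.14, 12.51, 12.60 and 12.21 untreated. In T-cell lines it stood at 11.71, 10.64, 11.72 and 11.05 treated, against 11.39, 11.36, 12.39 and 11.84 untreated, so those groups overlapped and CCRF-CEM was higher after treatment. RRM2 fell by 2.93 ± 0.33 in ALCL lines (adjusted p = 0.000453), and its difference of -0.47 ± 0.33 in T-cell lines was not called (adjusted p = 0.262). The other RRM2 probe set gave -2.13 in ALCL lines, where it was called, and 0.39 in T-cell lines, where it was not.

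TK1, the cytosolic thymidine kinase that salvages thymidine, moved in opposite directions. It stood at 7.84, 7.54, 7.37 and 8.60 in treated ALCL lines, against 8.79, 8.80, 8.73 and 8.92 untreated. In T-cell lines it stood at 9.05, 8.30, 8.97 and 8.47 treated, against 8.18, 7.62, 7.75 and 7.43 untreated. Each treated array lay below every untreated one in ALCL lines and above every untreated one in T-cell lines. TK1 fell by 0.97 ± 0.17 in ALCL lines (adjusted p = 0.00403) and rose by 0.95 ± 0.17 in T-cell lines (adjusted p = 0.00276). It was the 1 replication gene called higher in T-cell lines. With arrays scaled on their hybridisation spikes, which moves the median of all genes to -0.53 in T-cell lines, its difference there was 0.29 and was not called (adjusted p = 0.614).

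**Figure D3:**
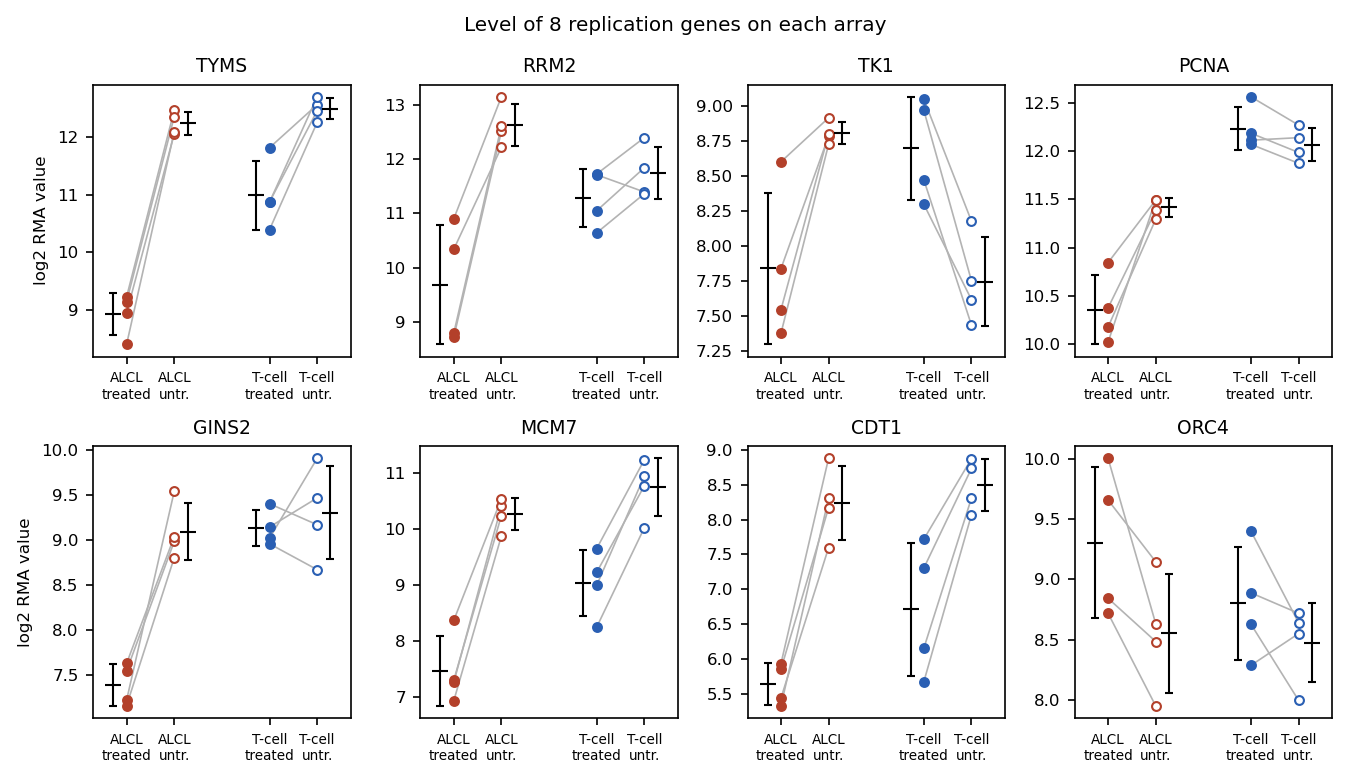
Log2 level of 8 replication genes on each of the 16 arrays; filled points are treated and open points untreated lines, red ALCL and blue T-cell, grey lines join the arrays of a line, and bars give the mean and SD of n = 4 lines. TYMS, MCM7 and CDT1 are lower after treatment in all 8 lines, while TK1 and PCNA part between the cell types.

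All 6 subunits of the MCM helicase fell in both types, with medians of -2.27 in ALCL and -0.89 in T-cell lines. With the deposited values quantile normalized, MCM5 and MCM7 were called in T-cell lines and the other 4 were not (differences of -0.49 to -0.16). MCM7 stood at 6.92, 7.29, 7.26 and 8.36 in treated ALCL lines, against 9.88, 10.24, 10.41 and 10.54 untreated. In T-cell lines it stood at 9.23, 8.24, 9.65 and 8.99 treated, against 10.77, 10.02, 11.24 and 10.95 untreated. Neither type's treated and untreated arrays overlapped, and MCM7 fell by 2.81 ± 0.16 and by 1.72 ± 0.16 (adjusted p = 2.02e-05 and 0.000125). MCM2 was even among T-cell lines, with changes between -0.88 and -0.80 in the 4 lines, against -2.99 to -1.65 in the 4 ALCL lines. MCM5 fell by 2.44 ± 0.20 in ALCL and by 1.65 ± 0.20 in T-cell lines. MCM4 fell by 2.17 ± 0.18 and by 0.59 ± 0.18, and MCM6 by 1.84 ± 0.18 and by 0.85 ± 0.18. MCM3 had the smallest fall of the ring in ALCL lines, 1.12 ± 0.16, beside 0.93 ± 0.16 in T-cell lines.

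Among licensing factors, CDT1, which brings the MCM ring to the origin, stood at 5.93, 5.44, 5.33 and 5.85 in treated ALCL lines, against 8.88, 7.60, 8.30 and 8.17 untreated. In T-cell lines it stood at 7.72, 6.16, 7.30 and 5.68 treated, against 8.87, 8.31, 8.73 and 8.07 untreated. CDT1 had the lowest difference of all 45 genes in T-cell lines, -1.78 ± 0.22 (adjusted p = 0.000416), and -2.60 ± 0.22 in ALCL lines (adjusted p = 0.000129). CDC6, its partner in loading, stood at 6.11, 6.40, 6.13 and 7.24 in treated ALCL lines, against 7.76, 7.53, 8.27 and 7.99 untreated. In T-cell lines CDC6 stood at 9.31, 7.96, 8.91 and 8.09 treated, against 8.74, 8.33, 9.07 and 8.58 untreated, with CCRF-CEM higher and the other 3 lower. Its difference was -1.42 ± 0.23 in ALCL lines (adjusted p = 0.00264) and -0.11 ± 0.23 in T-cell lines (adjusted p = 0.697). GMNN, geminin, which blocks CDT1 outside G1, likewise fell by 1.43 ± 0.21 in ALCL lines, and its -0.28 ± 0.21 in T-cell lines was not called.

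Of the 5 subunits of the origin recognition complex among the 45 genes, 3 were lower and 1 higher in ALCL lines, and 3 were lower in T-cell lines. A further subunit, ORC6, is on a wider list described below. Its difference was -0.68 ± 0.16 in ALCL lines, where it was called, and -0.14 ± 0.16 in T-cell lines, where it was not. ORC1 fell by 1.44 ± 0.16 in ALCL and 1.02 ± 0.16 in T-cell lines. ORC2 fell by 0.82 ± 0.20 and by 1.25 ± 0.20, and ORC3 by 0.80 ± 0.14 and by 0.42 ± 0.14. ORC4 was the 1 replication gene called higher in ALCL lines, at 10.00, 8.72, 9.66 and 8.84 treated, against 8.63, 7.95, 9.15 and 8.48 untreated. It was higher on the treated array in each of those lines, although the groups overlapped, with a difference of 0.75 ± 0.20 (adjusted p = 0.026). In T-cell lines ORC4 stood at 8.63, 9.40, 8.89 and 8.29 treated, against 7.99, 8.64, 8.72 and 8.55 untreated, and its 0.32 ± 0.20 was not called (adjusted p = 0.211). The ALCL call was lost without FE-PD, JB6 or SU-DHL-1 and with arrays centred on their median or on the spikes. ORC5 was called in neither type, with changes between -1.04 and 0.24 in ALCL and between -1.36 and -0.03 in T-cell lines. A dimmer ORC5 probe set was called lower in T-cell lines (-0.94, adjusted p = 0.0218), and the gene was called there in 9 of 21 alternative analyses.

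Origin firing factors fell in 3 of 4 cases in each type. CDC45 fell by 1.42 ± 0.12 in ALCL and by 0.62 ± 0.12 in T-cell lines, and GINS1 by 1.86 ± 0.16 and by 0.92 ± 0.16. GINS2 stood at 7.55, 7.16, 7.22 and 7.63 in treated ALCL lines, against 8.98, 8.80, 9.54 and 9.04 untreated. In T-cell lines GINS2 stood at 9.14, 9.02, 9.40 and 8.96 treated, against 9.47, 9.91, 9.17 and 8.67 untreated, lower in CCRF-CEM and Jurkat and higher in both Molt lines. Its difference was -1.70 ± 0.22 in ALCL lines (adjusted p = 0.000744) and -0.17 ± 0.22 in T-cell lines (adjusted p = 0.520). CDC7, the kinase that fires origins, fell by 0.89 ± 0.31 in T-cell lines (adjusted p = 0.0411), while its -0.67 ± 0.31 in ALCL lines was not called (adjusted p = 0.142).

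Of the 9 polymerase and primase genes, 8 fell in ALCL and 7 in T-cell lines. Accessory subunits of the leading-strand polymerase fell in both types, POLE2 by 1.84 ± 0.18 in ALCL and 1.39 ± 0.18 in T-cell lines, and POLE3 by 1.81 ± 0.23 and 1.18 ± 0.23. The catalytic subunit POLE was called in neither type, with changes of -0.65 to 0.00 in ALCL lines and -0.22 to 0.58 in T-cell lines. POLD3 fell by 1.12 ± 0.12 in ALCL and 1.28 ± 0.12 in T-cell lines, POLD2 by 0.91 ± 0.13 and 0.93 ± 0.13, and POLD1, the catalytic subunit of the lagging-strand polymerase, by 1.16 ± 0.14 and 0.47 ± 0.14. PRIM1, the primase that lays down RNA primers, fell by 1.32 ± 0.13 and 1.02 ± 0.13, and its partner POLA2 by 1.20 ± 0.14 and 0.95 ± 0.14. POLA1, the polymerase that extends those primers, fell by 0.89 ± 0.16 in ALCL lines, and its -0.28 ± 0.16 in T-cell lines was not called.

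At the clamp and its loader, 5 of 6 genes fell in ALCL and 4 of 6 in T-cell lines. PCNA stood at 10.84, 10.18, 10.37 and 10.02 in treated ALCL lines, against 11.49, 11.29, 11.39 and 11.50 untreated. In T-cell lines PCNA stood at 12.19, 12.07, 12.56 and 12.11 treated, against 11.99, 11.87, 12.27 and 12.14 untreated. Its treated ALCL arrays all lay below the untreated ones, while its T-cell groups overlapped. PCNA fell by 1.06 ± 0.14 in ALCL lines (adjusted p = 0.000991), and its 0.17 ± 0.14 in T-cell lines was not called (adjusted p = 0.351). RFC3, RFC4, RFC5 and RFC2, the small loader subunits, fell by 1.95 ± 0.27, 1.80 ± 0.23, 1.77 ± 0.15 and 1.09 ± 0.15 in ALCL lines. In T-cell lines they fell by 1.10 ± 0.27, 0.77 ± 0.23, 0.83 ± 0.15 and 0.64 ± 0.15. The large subunit RFC1 was called in neither type, with changes of -0.56 to 0.06 in ALCL and -0.66 to 0.02 in T-cell lines.

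None of the 3 subunits of the single-strand binding protein RPA was called by limma in T-cell lines, where 14 of the 45 genes were not. RPA3, at -0.44 ± 0.17 there (adjusted p = 0.0577), alone of the 3 had an unadjusted p below 0.05 (0.0255). It was called there in 3 of 21 alternative analyses. RPA1 had a difference of 0.08 ± 0.17 in T-cell lines and fell by 0.76 ± 0.17 in ALCL lines (adjusted p = 0.0117). RPA2 fell by 1.10 ± 0.22 in ALCL lines, and its -0.37 ± 0.22 in T-cell lines was not called. RPA3 was called in neither type, with changes of -0.59 to -0.06 in ALCL and -0.81 to 0.19 in T-cell lines. All 3 genes that finish Okazaki fragments fell in both types. FEN1, which cuts off displaced flaps, fell by 1.82 ± 0.18 in ALCL and 0.97 ± 0.18 in T-cell lines, RNASEH2A, which cuts RNA paired with DNA, by 1.43 ± 0.20 and 0.98 ± 0.20, and LIG1, which seals the nicks, by 1.15 ± 0.14 and 0.72 ± 0.14. The histone chaperone subunits CHAF1A and CHAF1B fell by 1.07 ± 0.11 and 0.51 ± 0.13 in ALCL lines, and in T-cell lines CHAF1A fell by 0.44 ± 0.11 while CHAF1B, at -0.29 ± 0.13, was not called. Other CHAF1A probe sets gave -0.66 in T-cell lines, which was called, and -0.07, which was not. The CHAF1A call in T-cell lines was lost in 4 of 21 alternative analyses, quantile normalization among them. With the deposited values quantile normalized, 20 genes were called lower and 4 higher in T-cell lines, where 15.9% of all genes were lower and 16.7% higher under that scaling. The higher ones were TK1, ORC4 (0.62), RPA1 (0.54) and PCNA (0.45).

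The difference between the 2 treatment effects was tested directly, as the effect in ALCL lines minus that in T-cell lines. It was called for 8 of the 45 genes, each lower in ALCL lines, where 1.68% of all genes were called, 0.568% lower and 1.11% higher. None was called higher by limma, and none had an unadjusted p below 0.05 in that direction, while 26 did in the other. How many of all genes reached that unadjusted level was not counted. The lowest differences were RRM2 at -2.46 ± 0.46 (adjusted p = 0.0287), TK1 at -1.92 ± 0.25 (adjusted p = 0.005) and TYMS at -1.80 ± 0.27 (adjusted p = 0.0116). The helicase subunits MCM4 and MCM2 followed at -1.57 ± 0.26 and -1.53 ± 0.26, with GINS2 at -1.53 ± 0.30, PCNA at -1.23 ± 0.20 and MCM7 at -1.09 ± 0.23 (adjusted p = 0.049). The other 3 MCM4 probe sets had differences of -1.28, -1.01 and -0.89, none of them called by limma (adjusted p = 0.106, 0.227 and 0.144). Among the 8 called genes were 3 of the 4 nucleotide supply genes and 3 of the 6 MCM genes. In 16 of the 45 genes all 4 ALCL changes lay below all 4 T-cell changes, as in 3.77% of all genes. The median over the 45 genes was -0.69, beside -0.05 over all genes. The count depended on the scaling: quantile normalization gave 16, and centring on the hybridisation spikes left 1, RRM2. It also rested on single lines: it was 2 without Molt-3, 4 without Molt-4, 5 without JB6, SU-DHL-1 or CCRF-CEM, and 3 with the Molt lines averaged as 1 line.

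**Figure D4:**
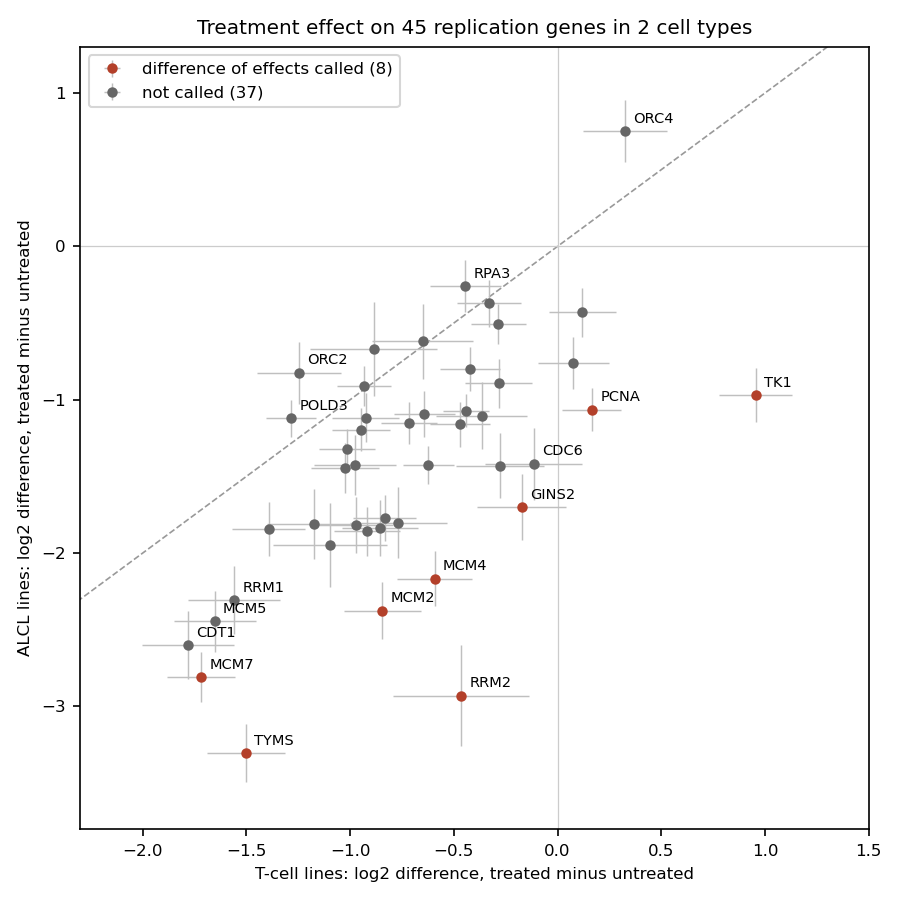
Treatment effect (log2, treated minus untreated) of each of the 45 replication genes in ALCL lines (vertical axis) against that in T-cell lines (horizontal axis), with standard errors from limma; the dashed line marks equal effects. Red points are the 8 genes whose effects differed by the test, from RRM2 at -2.93 and -0.47 to TK1 at -0.97 and 0.95.

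Before treatment few of these genes differed between the cell types by the test, although most lay somewhat lower in ALCL lines. The median log2 difference of the 45 genes was -0.30, beside 0.04 over all genes. Below 0 were 36 of the 45, and 5326 of all 11963 genes. At an unadjusted p below 0.05 by limma, 15 were lower and 3 higher. The share of all genes at that unadjusted level was not counted. Of the 45, 5 were lower and 1 higher in untreated ALCL than in untreated T-cell lines, where 8.76% of all genes were called, 5.58% lower and 3.18% higher. GINS1 was lower by 1.02 ± 0.14 on the log2 scale (limma, adjusted p = 0.00445), CDC45 by 0.89 ± 0.22, RFC1 by 0.82 ± 0.19, PCNA by 0.65 ± 0.12 and CHAF1A by 0.42 ± 0.10. The calls of CDC45, RFC1 and CHAF1A were lost in 13, 12 and 15 of 19 alternative analyses. Those of GINS1 and PCNA were lost in 2 and 3. Other RFC1 probe sets, at -0.96 and 0.17, were not called. TK1 was higher by 1.06 ± 0.16 (adjusted p = 0.00684), and its 4 untreated ALCL arrays, 8.73 to 8.92, lay above the 4 untreated T-cell arrays, 7.43 to 8.18. The groups did not overlap for 10 genes with ALCL lower (9.74% of all genes) and for TK1 with ALCL higher (8.61%). With spike centring the count called was 1 and the median of the 45 genes was -0.00, beside 0.34 over all genes. With quantile normalization the count was 3. Without SU-DHL-1 it was 10, without Karpas 299, CCRF-CEM or Molt-3 it was 3, and without Molt-4 it was 2.

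After treatment more of them were apart, while fewer genes overall were called (2.88%). In treated ALCL lines 15 of the 45 genes were lower than in treated T-cell lines (1.53% of all genes), and none was called higher by limma (1.35% of all genes), nor had an unadjusted p below 0.05 in that direction. CDC6 had the lowest difference, -2.09 ± 0.36 (adjusted p = 0.016), with treated ALCL arrays at 6.11 to 7.24, below the treated T-cell arrays at 7.96 to 9.31. TYMS was at -2.05 ± 0.31, GINS1 at -1.96 ± 0.23, PCNA at -1.88 ± 0.21 and RPA1 at -1.80 ± 0.26. GINS2, CDC45, GMNN, RFC4 and MCM2 lay between -1.74 and -1.51, and RFC5, FEN1, MCM4, CHAF1A and RFC1 lay between -1.48 and -0.86. The MCM4 call (limma, adjusted p = 0.0494) was lost in 15 of 19 alternative analyses. Its other probe sets, at -0.86, -0.73 and -0.66, were not called. In 24 genes every treated ALCL array lay below every treated T-cell array, as in 5.85% of all genes, and in none did every one lie above (4.26% of all genes). TK1, higher in ALCL lines before treatment, was at -0.86 ± 0.29 after it and not called (adjusted p = 0.174). The count was 1 with spike centring, 24 with the cell line as a random block, 4 without the 3 lines lacking the 5' 28S rise and 8 without Molt-3.

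Lines of one type also differed. The median change of the 45 genes was -1.58 in JB6, -1.53 in SU-DHL-1, -1.21 in Karpas 299 and -1.11 in FE-PD, against -0.41 in CCRF-CEM, -0.71 in Jurkat, -0.80 in Molt-3 and -0.85 in Molt-4. Each ALCL line thus lay below each T-cell line. JB6 and SU-DHL-1 had 35 and 37 genes at least 2-fold lower, against 8 in CCRF-CEM, where 8 genes were higher on the treated array. The lines whose treated array had the rise of the 5' 28S control had medians of -1.36 (3 ALCL lines) and -0.82 (2 T-cell lines). The lines without it had medians of -1.21 (Karpas 299) and -0.61 (CCRF-CEM and Jurkat). The medians were thus below 0 in both strata and nearer 0 without the rise of the 5' control, while CCRF-CEM and Jurkat had the rise of the middle control; the part of either in the result was not tested. With those 5 lines left out, 12 genes were called lower and 1 higher in T-cell lines, where 8.32% of all genes were lower and 4.19% higher. In that limma fit ALCL lines are Karpas 299 alone, so only sizes are given for them. The median of the 45 genes was -1.21 there, beside 0.07 over all genes. For the difference of effects the median of the 45 genes was -0.58, beside -0.02 over all genes.

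**Figure D5:**
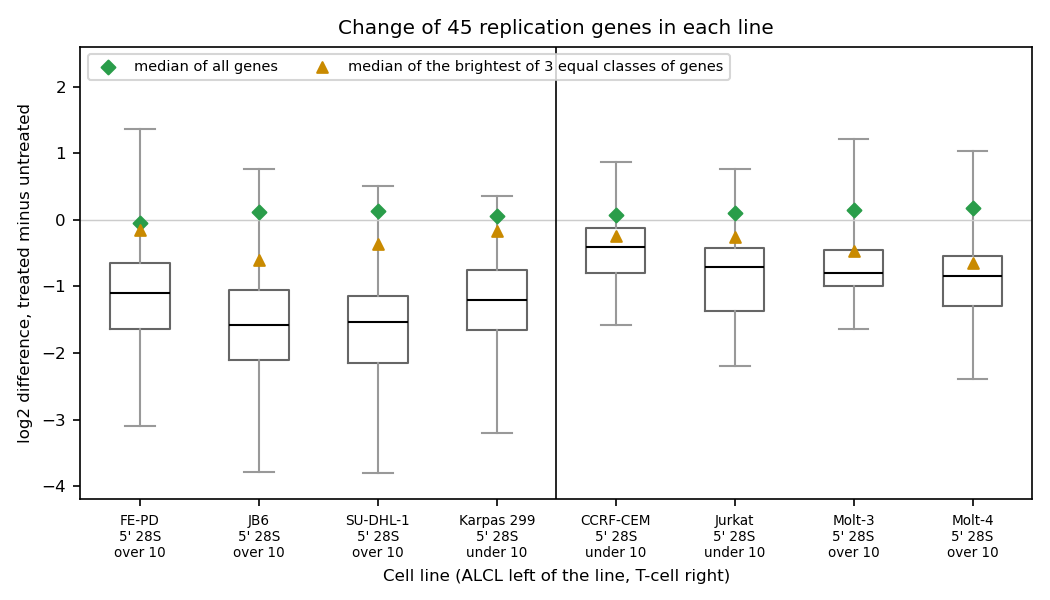
Distribution of the log2 change, treated minus untreated, of the 45 replication genes in each line (box, quartiles and median; whiskers, lowest and highest gene), with the median of all genes (diamond) and of the brightest of 3 equal classes of genes (triangle). The gene medians run from -1.58 to -1.11 in the ALCL lines and from -0.85 to -0.41 in the T-cell lines.

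Probe set brightness moved with the fall. Ranked by mean untreated level, 42 of the 45 genes lay in the brightest of 3 classes of equal size. In that class the median over all genes was -0.31 in ALCL and -0.41 in T-cell lines, and 31.3% and 43.4% of genes fell. The 42 replication genes in it had medians of -1.37 and -0.80. In the dimmest and the middle class the medians over all genes were 0.17 and 0.16 in ALCL lines. In T-cell lines they were 0.26 and 0.23. The SD of values across probe sets was lower on the treated array in every line, with changes between -0.30 in Molt-4 and -0.02 in FE-PD. The part of this narrower spread in the fall of the replication genes was not tested.

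Most other replication genes measured moved the same way. Of 39 measured genes on a wider pathway list (47 listed), 28 fell in ALCL lines (71.8%, beside 13.4% of all genes). None rose there, also at an unadjusted p below 0.05, where 8.04% of all genes rose by the adjusted test. In T-cell lines 24 fell (61.5%, beside 20.2% of all genes) and 3 rose (7.69%, beside 21.7%). Their medians were -0.996 and -0.77. The lowest in ALCL lines were DCK, deoxycytidine kinase, which activates 5-aza-dC (-2.36 ± 0.26), UNG, which removes uracil from DNA (-2.24 ± 0.19), the topoisomerase TOP2A (-2.09 ± 0.40) and the chromatin ATPase ATAD2 (-1.99 ± 0.23). In T-cell lines the lowest were DCTD, dCMP deaminase (-2.16 ± 0.24), DBF4, the activator of CDC7 (-2.14 ± 0.25), CTPS1, CTP synthase (-2.09 ± 0.11), and CMPK1, a nucleoside monophosphate kinase (-1.77 ± 0.24). The 3 that rose in T-cell lines were SLBP, which binds histone mRNA (0.97 ± 0.19), the helicase RECQL4 (0.82 ± 0.15) and the histone chaperone ASF1B (0.58 ± 0.13). In ALCL lines these 3 fell, by 0.64, 0.51 and 0.67. They were also among the 7 pathway genes with a called difference between the effects, all lower in ALCL lines (17.9%, beside 0.568% of all genes). The lowest 4 were ATAD2 (-1.70), SLBP (-1.62), MCM10 (-1.56) and UNG (-1.35).

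Between untreated cell types 6 pathway genes were lower in ALCL lines (15.4%, beside 5.58% of all genes), with ASF1A (-1.75), CTPS1 (-1.42), DCK (-1.41) and RFWD3 (-1.29) lowest. SAMHD1, which breaks down deoxynucleotides, was higher (0.89), as were 3.18% of all genes. Between treated types 10 were lower in ALCL lines (25.6%, beside 1.53% of all genes), with MCM10 (-2.34), DCK (-2.20), SLBP (-2.01) and ATAD2 (-1.99) lowest.

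Regulators of the G1 to S step were mostly lower after treatment, with exceptions. Of 20 measured, 16 had a difference below 0 in ALCL lines and 18 in T-cell lines. In ALCL lines 9 fell (45%, beside 13.4% of all genes) and none rose, also at an unadjusted p below 0.05. In T-cell lines 12 fell (60%, beside 20.2% of all genes) and 1 rose (5%, beside 21.7%). The medians were -0.48 and -0.71. E2F1 itself showed -0.07 ± 0.23 in ALCL and -0.05 ± 0.23 in T-cell lines, neither called. TFDP1, the usual partner of E2F proteins (-1.92 ± 0.30), MYC (-1.69 ± 0.41), E2F8, a repressor of E2F targets (-1.65 ± 0.16), and SKP2, a ubiquitin ligase subunit (-1.61 ± 0.14), were lowest in ALCL lines. In T-cell lines MYC fell by 3.92 ± 0.41, the lowest value of all 11963 genes, followed by E2F8 (-1.85 ± 0.16), SKP2 (-1.56 ± 0.14) and TFDP2 (-1.47 ± 0.22). CCNE1, cyclin E1, was the 1 regulator that rose there (0.41 ± 0.14, adjusted p = 0.0413). RB1 was called in neither treatment comparison (0.14 ± 0.37 in ALCL, -0.78 ± 0.37 in T-cell lines), and was lower in untreated ALCL than in untreated T-cell lines by 2.09 ± 0.36. TFDP2 was lower there by 1.98 ± 0.34, and its effects differed by 1.79 ± 0.32, the 1 regulator called for that. Between treated types CDC25A alone was called, lower in ALCL lines by 1.09 ± 0.21.

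Of 10 general proliferation markers, 9 fell in each type, with medians of -1.93 in ALCL and -1.45 in T-cell lines. That is 90%, beside 13.4% of all genes in ALCL and 20.2% in T-cell lines. MKI67, the Ki-67 antigen, fell by 1.43 ± 0.22 and by 1.00 ± 0.22, and CCNA2, cyclin A2, by 2.21 ± 0.19 and by 1.55 ± 0.19. AURKB (-2.84), KIF11 (-2.72), CCNA2 and CDK1 (-2.12) were lowest in ALCL lines, and CCNB1 (-2.02), AURKB (-1.92), PLK1 (-1.61) and CCNA2 in T-cell lines. None of the 10 had a called difference between the effects, although 3 had an unadjusted p below 0.05 by limma. None was called between untreated types, where 6 had such an unadjusted p. All genes were not counted at that unadjusted level. Between treated types KIF11 (-2.45), CDK1 (-1.69) and CCNA2 (-1.40) were lower in ALCL lines (30% of the 10, beside 1.53% of all genes).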

How the data were processed

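RNA from 8 cell lines, treated and untreated, was hybridised to 16 Affymetrix HG-U133A arrays. The authors deposited 1 log2 value per probe set and array; the submitters' processing notes name RMA and R 2.10.1. Which arrays RMA normalized together and which probe set definitions it used is not given in the sources used here. Scanner files were not used, so no gene is called absent and only the number of arrays states the precision.

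Of 22283 probe sets, 19065 had 1 gene symbol in the platform's annotation, 1043 had several, 2107 had none listed and 68 were controls. This gave 11963 genes, of which 11954 were found in RefSeq (GRCh38.p14), and 4310 had several probe sets. Treatment effects and their difference came from 1 limma 3.58.1 fit of all 16 arrays in R 4.3.3 (lmFit, then eBayes; p values are two-sided), in which each cell line is its own block and 6 residual degrees of freedom remain. Comparisons between cell types used 8 arrays each. Adjusted p values are Benjamini-Hochberg over the 11963 genes, and "called", "fell" and "rose" mean an adjusted p below 0.05. Lines are the replicates, with 1 array each, so culture-to-culture spread within a line was not measured.

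Treated and untreated arrays carry the same line names and are paired. Across genes, deviations of a line's treated and untreated arrays from their group means correlated between 0.33 (Molt-4) and 0.643 (SU-DHL-1). The highest correlation with another line of the type was 0.399, for Molt-3, whose own was 0.413.

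Members and the pathway, regulator and proliferation lists were chosen with earlier results of these data known. Named are, in each comparison, the 10 lowest and 10 highest called members, at least 1 member of each role, all members called in neither type, the 4 lowest and 4 highest called genes of each other list, and E2F1, RB1, MKI67, CCNA2 and MYC. A further gene of that rule is not reported here.

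On simulated data with 11963 genes (10 simulations), 2-fold changes were called in 73.1% of cases for ALCL lines, 71% for T-cell lines, 53.4% for the difference of effects and 59% between untreated types. The shares for 4-fold changes were 96.2%, 97.4%, 90.3% and 88.3%. Alternatives changed the block, the arrays fitted, the probe set per gene, the filter, the scaling and the variance model, and left out lines. Averaging Molt-3 and Molt-4 was added after seeing the data.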

Additional observations from a re-analysis of the deposited data

Results flagged for a closer look

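The treatment effect differed between ALCL and T-cell lines by the test of that difference for 8 replication genes, each with the lower value in ALCL lines. The differences were -2.46 for RRM2, -1.92 for TK1, -1.80 for TYMS, -1.57 for MCM4, -1.53 for MCM2, -1.53 for GINS2, -1.23 for PCNA and -1.09 for MCM7. TK1 is the 1 gene of the 8 whose effect was called in both types with opposite signs.

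In 6 of 180 groups of 4 arrays, 1 line stood apart from the other 3 by Dixon's criterion, which chance meets in about 1 of 20 groups. Treated JB6 was low among treated ALCL lines for RRM1 (7.12, the others 7.995 to 8.13), PRIM1 (7.63, the others 8.23 to 8.29) and POLE3 (7.47, the others 8.05 to 8.16). Treated Jurkat was low among treated T-cell lines for ORC2, at 6.35 with the others at 6.92 to 7.03. Among untreated ALCL lines, SU-DHL-1 was high for RFC3, at 10.04 with the others at 9.005 to 9.06, and Karpas 299 was low for FEN1, at 9.16 with the others at 9.51 to 9.58.

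The control for the 5' part of 28S ribosomal RNA, which no comparison of genes uses, read 12.05 in FE-PD, 14.09 in JB6, 14.06 in SU-DHL-1, 8.15 in Jurkat, 14.26 in Molt-3 and 14.16 in Molt-4 on treated arrays, above the 6.60 to 7.62 of the 8 untreated arrays. The control for its middle part read 11.51 in FE-PD, 12.06 in JB6, 11.77 in SU-DHL-1, 10.74 in CCRF-CEM, 11.01 in Jurkat, 11.64 in Molt-3 and 11.86 in Molt-4 on treated arrays, above the 9.14 to 9.60 of the untreated ones.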

How the results depend on the processing

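Counts of called replication genes were 40 (ALCL), 31 (T-cell), 8 (difference of effects), 6 (untreated types) and 15 (treated types). Without the replicate block, that is without pairing by line, they were 35, 25 and 4 for the first 3. Leaving out 1 line at a time gave 36 to 40 for ALCL, 24 to 33 for T-cell lines, 2 to 8 for the difference of effects, 2 to 10 for untreated and 8 to 14 for treated types. Quantile normalization gave 16 for the difference of effects and 3 for untreated types. In T-cell lines it gave 20 lower and 4 higher in place of 30 and 1. Medians of the 45 genes were then -1.17 (ALCL) and -0.42 (T-cell), in place of -1.32 and -0.77. Over all genes the medians were 0.05 and 0.07 under that scaling. Spike centring gave 1, 1 and 1 for the difference of effects, untreated and treated types; it moved the medians of all genes to -0.47 (ALCL), -0.53 (T-cell), 0.34 (untreated) and 0.38 (treated), with medians of the 45 genes at -1.88, -1.44, -0.00 and -0.57. It also turned the calls over all genes to 1926 lower and 82 higher in ALCL lines (1604 and 962 as reported) and to 3090 and 66 in T-cell lines (2417 and 2601). Without the 5 lines with the rise of the 5' 28S control the counts were 0 for ALCL, 13 for T-cell lines, 0 for the difference, 0 for untreated and 1 for treated types; 1 ALCL line is then left, assumed to vary like the T-cell lines, with 1 residual degree of freedom in the paired fit. Without the 3 lines lacking that rise, 5 were called for the difference of effects and 4 between treated types. Requiring all probe sets of a gene to be called the same way gave 5 for the difference of effects. Cell line as a random block gave 24 between treated types. Averaging Molt-3 and Molt-4, chosen after seeing the data, gave 3 for the difference of effects and 3 for untreated types. The cause of these shifts was not tested, apart from the loss of lines. No called difference of a gene changed sign. Leaving aside the fit with 1 ALCL line, 34 of 40 genes in ALCL and 18 of 31 in T-cell lines were called under every alternative, as were 0 of 8, 1 of 6 and 0 of 15 in the other comparisons. With that fit, which keeps 2 T-cell lines, counted as well, 9 of the 31 genes in T-cell lines were called under every alternative. MCM7's difference of effects (limma, adjusted p = 0.049) was lost in most alternatives. Arrays in 4 lines per type limit what smaller changes could be called.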
